A study of Mus musculus with 4 samples.

Results

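Mitosis and G2/M genes were followed in mammary gland RNA of mice that carry a PPARδ transgene and of their wild-type littermates. The set holds 40 genes chosen for their known roles between the end of DNA replication and the separation of the daughter cells. The set and the other gene lists below were chosen with earlier results of these data known. Through the platform's gene table, 69 of the 22690 probe sets of the array named 38 of these genes, and Ccnb1 and Cdca8 were matched by no probe set. The whole array named 12394 genes. There were 4 groups of female nulliparous mice, all of FVB background: MMTV-PPARd mice on chow with GW501516, MMTV-PPARd mice on standard chow, wild-type mice on chow with GW501516 and wild-type mice on standard chow. GW501516 is a man-made ligand that activates PPARδ, a nuclear receptor, and was given in the chow for 1 week. The labels gave its content in the chow as 0.005% in one place and 0.001% in another. The MMTV promoter, from the mouse mammary tumour virus, drives the transgene in mammary epithelium and is also known to be active in other tissues, among them salivary gland and lymphoid cells. The wild-type mice were age-matched littermates, with no age stated in the labels.

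Each group was 1 array hybridised with RNA pooled in equal amounts from 5 mice. No spread between mice or between arrays can be had from this design, so no difference below has a replicate check, and none was given a test. Genes were counted as called where their intensity differed by at least 2-fold, and for smaller differences the words higher and lower say only which reading was greater. In whole tissue, fewer dividing cells and less of these RNAs per cell cannot be told apart.

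Cells that leave S phase prepare for division by building up cyclin A and cyclin B, which activate the kinase CDK1. Chromosomes are then condensed and attached to the spindle under the control of Aurora and Polo kinases and of the spindle checkpoint, and the anaphase-promoting complex marks the cyclins for destruction. Most of these genes are transcribed late in the cycle and are silent in resting cells, which makes their summed RNA a common readout of how many cells of a tissue divide. In the nulliparous mammary gland, division occurs mainly in the epithelium and follows the ovarian hormones.

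Many of these genes share a promoter design known from human and mouse cells. A cell cycle genes homology region (CHR), with the letters TTTGAA, lies near the transcription start and is bound by the DREAM and MuvB complexes, which repress the gene in resting cells and activate it in G2. CCAAT boxes upstream of it bind NF-Y. RefSeq windows of 250 bases before to 50 bases after the start (GRCm38.p6) were at hand for 33 of the 40 genes. Searched on both strands, TTTGAA occurred in 24 of the 33 windows (72.7%), against 14.5% of the 6366 genes with a window that passed the filter on low intensity and 20.2% of all 27025 genes with a window. Within 100 bases before the start or in the bases after it, 23 of the 33 genes (69.7%) held TTTGAA, against 5.70% and 9.23% in the same 2 sets. CCAAT was found in 84.8% of the members, against 42.6% and 41.1%, and 20 members held at least 2 copies. Both motifs together were held by 69.7% of the members, against 6.97% and 8.97%. The E2F core, searched as TTGGCGC together with its forms TTCCCGC or else TTCGCGC or otherwise TTGCCGC, was found in 15.2% of the members, against 19.6% and 10.9%. The CHR variant TTTAAA was found in 21.2%, against 11.0% and 14.9%, and the TATA box TATAAA in 3.03%, against 9.30% and 15.7%. The reverse complement of the first E2F form ends in CCAA and can share bases with a CCAAT box, and TTTAAA reads the same on both strands.

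The windows below belong to the 5 members with a window whose transgenic intensity was 2-fold or more that of wild type on each diet, and to Kif23, at 1.62 times wild type on chow and 0.968 times on GW501516. They are given in the direction of transcription, and capitals mark the CHR, the CCAAT box and the E2F core on either strand.
Mki67, chr7:135716330-135716629, minus strand: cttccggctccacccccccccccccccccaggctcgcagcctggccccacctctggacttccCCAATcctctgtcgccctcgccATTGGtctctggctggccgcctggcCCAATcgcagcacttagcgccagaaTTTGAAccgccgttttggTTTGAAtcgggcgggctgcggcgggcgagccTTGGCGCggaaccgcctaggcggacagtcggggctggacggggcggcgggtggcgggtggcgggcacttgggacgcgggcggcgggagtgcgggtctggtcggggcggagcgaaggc
Birc5, chr11:117848987-117849286, plus strand: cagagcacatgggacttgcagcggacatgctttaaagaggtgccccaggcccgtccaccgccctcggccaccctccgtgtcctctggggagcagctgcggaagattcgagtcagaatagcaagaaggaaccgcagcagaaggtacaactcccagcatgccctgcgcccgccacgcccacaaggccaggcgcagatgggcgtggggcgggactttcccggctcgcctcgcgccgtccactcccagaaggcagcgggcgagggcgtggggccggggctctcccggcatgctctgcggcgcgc
Ttk, chr9:83834439-83834738, plus strand: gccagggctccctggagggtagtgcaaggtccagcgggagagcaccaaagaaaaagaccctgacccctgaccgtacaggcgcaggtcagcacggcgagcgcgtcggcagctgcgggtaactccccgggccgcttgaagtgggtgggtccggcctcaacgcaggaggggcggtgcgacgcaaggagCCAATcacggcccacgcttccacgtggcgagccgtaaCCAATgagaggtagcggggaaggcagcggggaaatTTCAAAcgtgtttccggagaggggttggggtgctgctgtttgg
Nusap1, chr2:119618048-119618347, plus strand: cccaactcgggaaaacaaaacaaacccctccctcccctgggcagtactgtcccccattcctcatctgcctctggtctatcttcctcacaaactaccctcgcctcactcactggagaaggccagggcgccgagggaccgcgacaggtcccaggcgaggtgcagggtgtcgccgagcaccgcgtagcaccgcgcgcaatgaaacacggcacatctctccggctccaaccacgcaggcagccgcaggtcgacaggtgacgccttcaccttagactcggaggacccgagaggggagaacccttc
Hmmr, chr11:40733388-40733687, minus strand: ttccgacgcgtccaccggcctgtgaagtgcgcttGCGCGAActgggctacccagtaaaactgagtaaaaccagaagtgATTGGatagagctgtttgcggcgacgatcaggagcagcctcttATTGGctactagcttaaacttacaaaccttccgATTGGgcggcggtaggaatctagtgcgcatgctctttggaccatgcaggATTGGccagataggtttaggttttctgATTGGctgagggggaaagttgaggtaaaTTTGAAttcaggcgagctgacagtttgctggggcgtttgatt
Kif23, chr9:61946750-61947049, minus strand: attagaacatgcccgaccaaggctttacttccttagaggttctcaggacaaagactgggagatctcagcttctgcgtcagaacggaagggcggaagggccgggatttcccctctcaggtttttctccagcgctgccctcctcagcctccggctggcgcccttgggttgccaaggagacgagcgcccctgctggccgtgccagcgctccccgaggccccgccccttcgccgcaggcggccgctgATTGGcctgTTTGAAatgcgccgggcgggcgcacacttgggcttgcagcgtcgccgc
In Ttk, Hmmr and Kif23 the CHR letters lay within 10 bases after the annotated start, with a CCAAT box upstream, and in Mki67 there were CHR letters 116 and 98 bases before it. The Birc5 and Nusap1 windows held none of the letters in capitals, and Birc5 held the CHR variant 220 bases before its start. Among the measured members, the 23 with TTTGAA had a median log2 difference between transgenic and wild-type mice of 0.80 on GW501516 and 0.90 on chow, and the 8 without it had medians of 0.89 and 1.01. Both groups of members had medians above 0 on both diets.

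**Figure D1:**
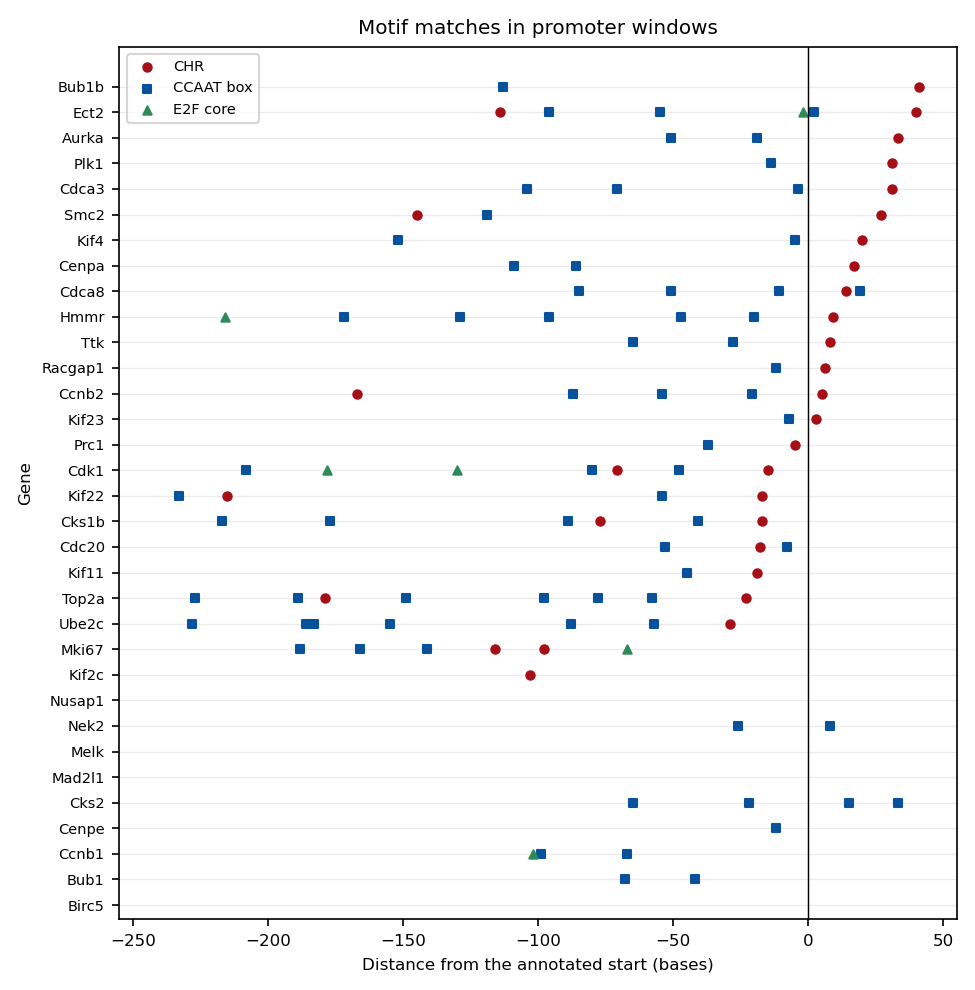
Positions of CHR (circles), CCAAT box (squares) and E2F core (triangles) matches in the promoter windows of the 33 genes with a window, as distance in bases from the annotated start. In 23 of them a CHR match lies within 100 bases before the start or after it, mostly with CCAAT boxes further upstream.

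The trimmed means of the arrays lay between 500.17 and 500.2, so they had been brought to one scale, and the values are intensities on a linear scale. Ppard read 4223.5 (GW501516) and 1943 (chow) in transgenic mice, against 1.5 and 2.1 in wild-type mice. Readings under a floor of 20.5 (the 25th percentile over the arrays) were raised to it, and no member had any array below it. Epithelial identity was present on all arrays, since none of 18 luminal markers was below the floor. Differences between the pools also appeared in other tissues of the gland. Summed over 15 T cell markers, intensity was 702.2 and 4591.7 in transgenic mice on GW501516 and on chow, against 813.5 and 12186 in wild-type mice on the same diets. Summed over 21 skeletal muscle genes it was 140406.6 and 42184 in transgenic mice, against 146239.9 and 18430.9 in wild-type mice. The transgenic chow array also stood apart in control transcripts, with a mean of 28.6 over the BioB probe sets, against 333.8 to 384.9 on the other arrays, and in Gapdh, at 3572.5 against 8730 to 12274.2.

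Most mitotic genes read above wild type in transgenic glands on either diet, mostly by less than 2-fold. Of the 38 measured members, 36 were above 0 on GW501516 and 37 on chow, on the log2 scale, against 50.2% and 51.8% of the 7836 genes that reached 139, the median of all values, on at least 1 array. Their median log2 difference was 0.85 (1.80-fold) on GW501516 and 0.90 (1.86-fold) on chow, against 0.002 and 0.020 over those 7836 genes. At least 2-fold higher were 13 members on GW501516, where 2.82% of the genes were, and 13 on chow, where 5.46% were. None was at least 2-fold lower on either diet, against 1.19% and 3.71%. Over all 12394 genes without the filter, 2.37% and 4.53% were at least 2-fold higher. The 2 comparisons share no array. Both transgenic arrays lay above both wild-type arrays for 34 of the 38, against 20.9% of genes (18.5% without the filter), and 25 were at least 1.5-fold higher on both diets, against 3.91%.

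Of the 38 members, 34 reached 139 on at least 1 array, and 9 of them did so on transgenic arrays alone, as did 304 of the 7836 genes. For the 25 that reached it on a wild-type array, the medians were 0.87 on GW501516 and 0.89 on chow, with 9 and 7 at least 2-fold higher. Cdc25c, Foxm1, Nek2 and Cenpe did not reach it on any array. The only gauge of technical scatter came from genes with several probe sets, whose differences from one probe set to the next had SDs of 0.37 (log2) on GW501516 and 0.38 on chow, over 2536 genes. These SDs hold no scatter between arrays or mice.

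**Figure D2:**
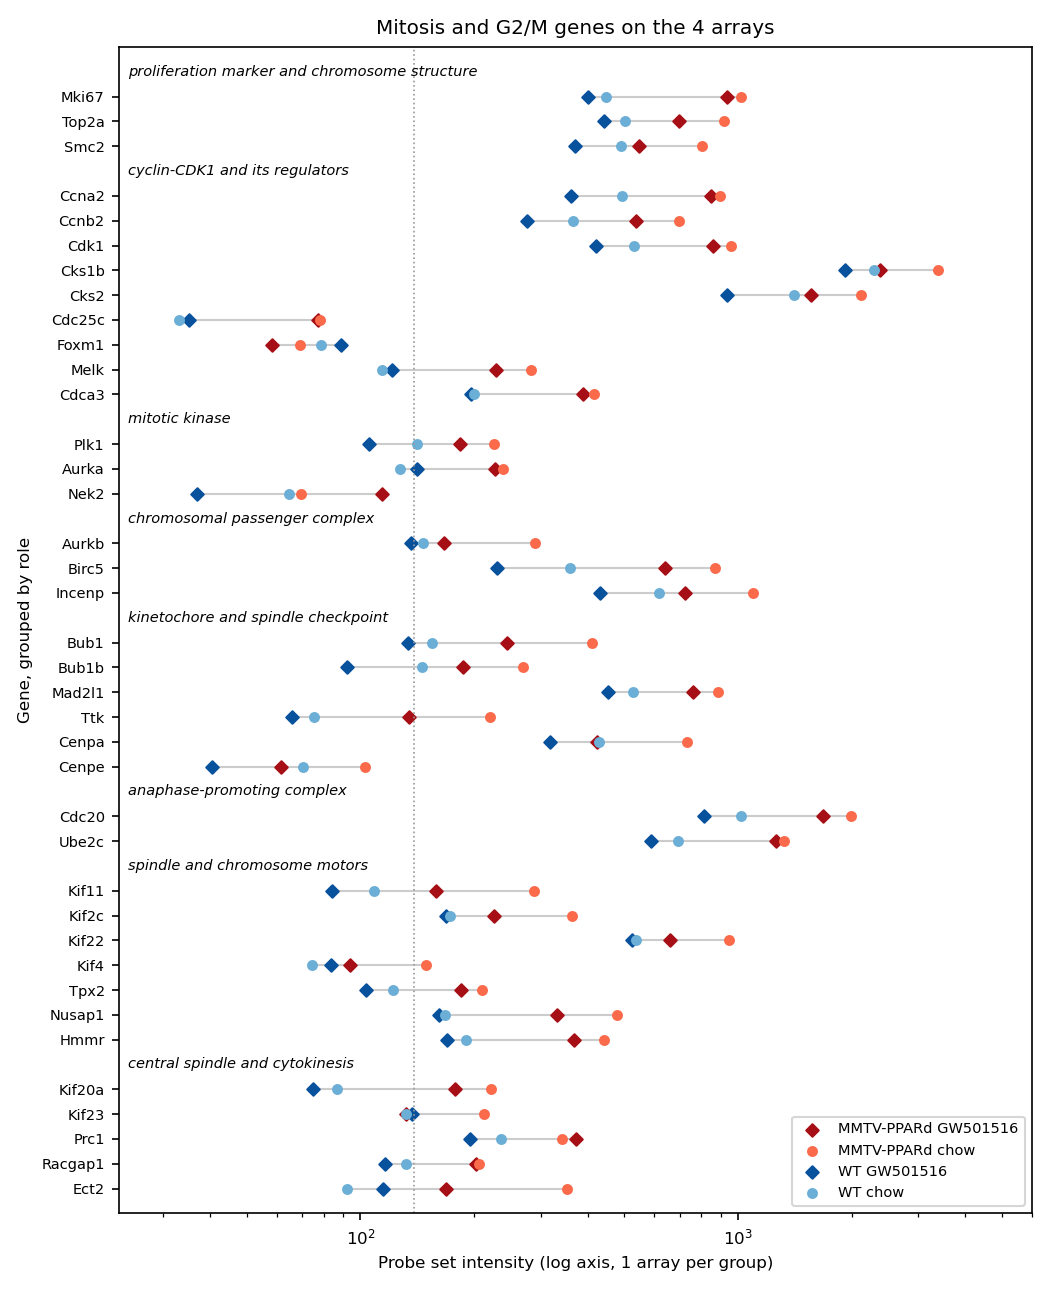
Intensity of each measured gene on the 4 arrays (log axis), grouped by role, with MMTV-PPARd pools in red, wild-type pools in blue, GW501516 as diamonds and chow as circles. The dotted line marks 139, and in 34 of 38 rows both red symbols lie to the right of both blue ones.

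Among markers of dividing cells and chromosome structure, Mki67 was more than 2-fold higher on both diets. Its product, Ki-67, coats mitotic chromosomes and is the standard stain for proliferation. It read 935.8 (GW501516) and 1017.4 (chow) in transgenic mice, against 401.4 and 447.5 in wild-type mice on the same diets. Both transgenic pools lay above both wild-type pools by at least 2.09-fold, and the genotype difference was 2.33-fold on GW501516 and 2.27-fold on chow. Top2a, the topoisomerase that untangles sister DNA, read 697.7 (GW501516) and 918.6 (chow), against 441 and 502.4. Smc2, a core subunit of condensin, read 547.7 and 803.3, against 370.3 and 489.4. These 2 were higher by 1.58-fold and 1.48-fold on GW501516 and by 1.83-fold and 1.64-fold on chow, below the 2-fold line.

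The cyclin and CDK1 genes were close to 2-fold higher on both diets. Ccna2, cyclin A2, read 849.4 (GW501516) and 897.1 (chow) in transgenic mice, against 362.2 and 492.7 in wild-type mice. Ccnb2, a B-type cyclin, read 537 and 695.9, against 276.4 and 365.8. Cdk1, their kinase partner, read 856.2 and 958.4, against 421.1 and 530. For each of these genes both transgenic pools lay above both wild-type pools, as for 20.9% of the 7836 genes. The genotype difference was 2.35-fold, 1.94-fold and 2.03-fold on GW501516 and 1.82-fold, 1.90-fold and 1.81-fold on chow for Ccna2, Ccnb2 and Cdk1. The CDK-binding proteins Cks1b and Cks2 differed less. Cks1b, which also serves the ubiquitin ligase that removes p27, read 2375.6 (GW501516) and 3382.1 (chow), against 1921.7 and 2292.3, so that its lowest transgenic pool exceeded its highest wild-type pool by 1.04-fold. Cks2 read 1563.3 and 2118.4, against 935.1 and 1403.4.

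Of the other genes around CDK1, Cdc25c passed 2-fold on both diets, Melk and Cdca3 on chow, and Foxm1 on neither. Of all genes, 2.82% were at least 2-fold higher on GW501516, 5.46% on chow and 1.57% on both. Cdc25c, a phosphatase that activates CDK1, had low intensities of 77.3 (GW501516) and 78.4 (chow) in transgenic mice, against 35.2 and 33 in wild-type mice, and was 2.196-fold and 2.38-fold higher. Melk, a kinase of dividing and progenitor cells, read 228.4 and 282.7, against 121.4 and 114.1. Cdca3, which promotes destruction of the CDK1 inhibitor Wee1, read 388 and 415.9, against 196.3 and 199.8, and was 1.98-fold higher on GW501516 and 2.08-fold on chow. Foxm1, the transcription factor that activates many of these genes in G2, read 58.4 and 69.2 in transgenic mice, against 89.1 and 78.5 in wild-type mice, differences under 2-fold, and was the only member with both transgenic pools below both wild-type pools, against 18.1% of genes. These intensities lay under 139 on all arrays, and its other 3 probe sets did not exceed 18.3 on any array.

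Of the mitotic entry kinases, Plk1 and Aurka followed the group. Plk1, the Polo kinase, read 183 (GW501516) and 225.3 (chow) in transgenic mice, against 105.4 and 140.8 in wild-type mice. Aurka, the Aurora kinase of the spindle poles, read 226.6 and 238.0, against 141.2 and 127.2. They were 1.74-fold and 1.60-fold higher on GW501516 and 1.60-fold and 1.87-fold on chow. Nek2, a kinase that separates the centrosomes, was different by diet, at 114.3 and 69.8, against 37 and 64.7. It was 3.09-fold higher in transgenic mice on GW501516 and 1.08-fold on chow, from a single probe set that read under 139 on all arrays.

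In the chromosomal passenger complex, Birc5 showed the largest difference of the members that reached 139 on GW501516. Birc5 encodes survivin, the subunit that places the complex on the centromere. It read 639.4 (GW501516) and 867.9 (chow) in transgenic mice, against 229.5 and 359.3 in wild-type mice, and was 2.79-fold and 2.42-fold higher. Incenp, the scaffold of the complex, read 724.4 and 1094.7, against 432.2 and 617.6. Aurkb, its kinase, read 166.5 and 289.6, against 136.1 and 146.2, so that it was 1.98-fold higher on chow and 1.22-fold on GW501516. A second Aurkb probe set gave log2 differences of 0.82 on GW501516 and 1.28 on chow, against 0.29 and 0.99 for the one above. By their design class, the probe sets used for Aurkb, Cdc20, Incenp, Kif22 and Kif2c, the one used for Prc1 and the second one of Aurkb may also bind transcripts of other genes, and those used for 11 other members bind several transcripts of 1 gene.

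Genes of the kinetochore and the spindle checkpoint all read above wild type on the same diet. Of these, 2 of 6 were at least 2-fold higher on each diet, against 2.82% of all genes on GW501516 and 5.46% on chow. They were Bub1b and Ttk on GW501516 and Bub1 and Ttk on chow. Bub1, a checkpoint kinase, read 244.5 (GW501516) and 410.6 (chow), against 133.6 and 155. Bub1b, which encodes BubR1, an inhibitor of the anaphase-promoting complex, read 187 and 269.7, against 92.1 and 145.2. Mad2l1, its partner in that inhibition, read 758.7 and 883.5, against 452.7 and 526.5, and was 1.68-fold higher on both diets. Ttk, the kinase that starts checkpoint signalling, read 134.3 and 220.7, against 66.1 and 75.6, and was 2.03-fold higher on GW501516 and 2.92-fold on chow. For these 4 genes both transgenic pools lay above both wild-type pools, as for 20.9% of the 7836 genes. The centromere genes overlapped between genotypes. Cenpa, the histone H3 variant of centromeres, read 421.9 and 734.3, against 317.5 and 427.3, and Cenpe, a kinetochore motor, read 61.7 and 103.1, against 40.4 and 70.4. In both, the transgenic pool on GW501516 lay below the wild-type pool on chow while exceeding the wild-type pool on GW501516.

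The cofactors of the anaphase-promoting complex were about 2-fold higher on both diets. Cdc20, its activator at anaphase, read 1679.4 (GW501516) and 1987.9 (chow) in transgenic mice, against 812.1 and 1019.9 in wild-type mice. Ube2c, the ubiquitin-conjugating enzyme of the complex, read 1263.6 and 1322.5, against 586.6 and 694.1. Their differences were 2.07-fold and 2.15-fold on GW501516 and 1.95-fold and 1.91-fold on chow. A list of core subunits of the complex, with its coactivator Fzr1 and Ube2s, an enzyme that extends ubiquitin chains, was measured beside them. Of its 13 measured genes 0 were at least 2-fold higher or lower on either diet. Of all genes, 2.82% on GW501516 and 5.46% on chow were at least 2-fold higher, and 1.19% and 3.71% lower. The count of 0 of 13 thus lies near those shares. The medians of the list were 0.095 on GW501516 and 0.00 on chow. The chow median is that of Cdc27, which was below the floor on all arrays, so its difference was set to 0. Over the 12 genes of the list that passed the filter on low intensity, the medians were 0.096 and 0.015.

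Of the spindle and motor genes, 2 of 7 were at least 2-fold higher on GW501516 and 4 of 7 on chow, against 2.82% and 5.46% of all genes. Nusap1, which bundles microtubules, read 331.5 (GW501516) and 478.4 (chow) in transgenic mice, against 161.1 and 167.9 in wild-type mice. Hmmr, a spindle protein and hyaluronan receptor, read 368.8 and 442.9, against 169.1 and 190.1. These 2 were at least 2-fold higher on both diets. Kif11, the motor that pushes the spindle poles apart, read 158.1 and 288.1, against 84.2 and 108.5, and was 1.88-fold higher on GW501516 and 2.66-fold on chow. Tpx2, the activator of Aurora A on the spindle, read 184.5 and 209.4, against 103.8 and 122.2.

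Kif2c, Kif22 and Kif4 had differences under 1.5-fold on GW501516 by the probe sets used. Kif2c, which dissolves faulty microtubule attachments, read 225.7 (GW501516) and 363.6 (chow) in transgenic mice, against 168.1 and 173.2 in wild-type mice. Kif22, a motor on chromosome arms, read 661.5 and 946.6, against 522.3 and 535.2. Kif4, a chromosome motor that organises the midzone, read 93.7 and 148.8, against 83.7 and 74.6. Their differences on GW501516 were 1.34-fold, 1.27-fold and 1.12-fold for Kif2c, Kif22 and Kif4, against which those on chow were 2.10-fold, 1.77-fold and 1.995-fold. Only for Kif2c (-0.645) and Kif4 (-0.83) among the 7 spindle and motor genes was the difference between the log2 values on GW501516 and on chow greater in size than 0.54, the SD of that quantity between probe sets of a gene. A Kif2c probe set with no shared-sequence class gave log2 differences of 0.71 on GW501516 and 1.03 on chow, and its intensities were 74.5 and 93.4 in transgenic mice, against 45.5 and 45.8.

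Of the 5 cytokinesis genes, 1 was at least 2-fold higher on GW501516 and 2 on chow, against 2.82% and 5.46% of all genes. Kif20a, a motor that carries the passenger complex to the midzone, read 177.6 (GW501516) and 222.2 (chow) in transgenic mice, against 74.8 and 86.8 in wild-type mice, and was 2.37-fold and 2.56-fold higher. Prc1, which crosslinks midzone microtubules, read 371.4 and 341.9, against 195.6 and 235.8. Racgap1, a subunit of centralspindlin, read 202.5 and 206.5, against 116.3 and 131.9. Its motor partner Kif23 read 132.3 and 212.8, against 136.7 and 131.7, so that on GW501516 the genotypes read nearly alike while on chow the transgenic pool was 1.62-fold higher. Another Kif23 probe set, near the floor, went the other way on chow, at 19.9 and 21.2 in transgenic mice, against 27.5 and 26.9 in wild-type mice. Ect2, the exchange factor that activates RhoA for the contractile ring, read 168.2 and 352.6, against 114.8 and 92.3. It had the highest difference of all members on chow, 3.82-fold, and was 1.47-fold higher on GW501516.

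**Figure D3:**
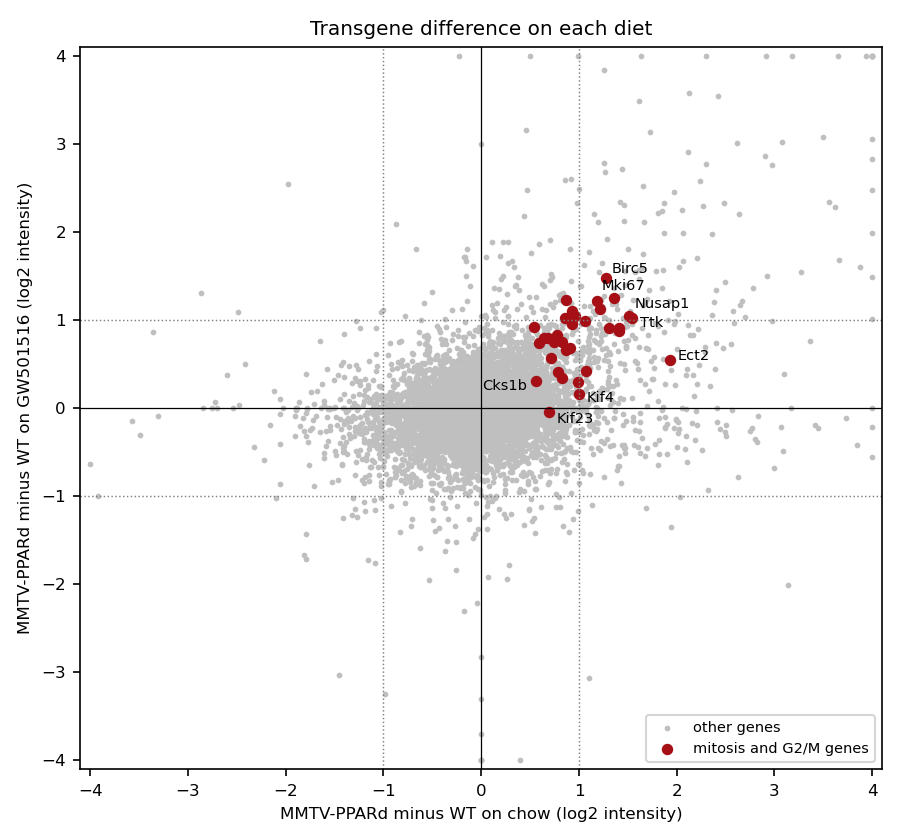
Log2 difference between MMTV-PPARd and wild-type mice on GW501516 (vertical) against that on chow (horizontal) for the 34 members (red) and all other genes that reached 139 (grey), with dotted lines at 2-fold; 29 genes beyond 4 on either axis are drawn at the edge. The members form one cloud to the upper right of the origin, with Kif23 and Kif4 near 0 on GW501516 and Ect2 to the right.

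At least 2-fold higher on both diets were 7 of the 38 members, namely Mki67, Cdc25c, Birc5, Ttk, Nusap1, Hmmr and Kif20a, against 1.57% of the 7836 genes. On chow alone these were joined by Melk, Cdca3, Bub1, Kif11, Kif2c and Ect2, and on GW501516 alone by Ccna2, Cdk1, Nek2, Bub1b, Cdc20 and Ube2c. Some of these lay just under the line on the other diet, such as Cdca3 and Cdc20, so the lists do not show that the diets differ for these genes.

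GW501516 went with slightly lower mitotic gene intensity in both genotypes. In transgenic mice 36 of 38 members were below 0, with a median of -0.39, and in wild-type mice 31 were, with a median of -0.22. Over the 7836 genes, 53.1% and 54.9% were below 0 and the medians were -0.034 and -0.037. In both genotypes at once 29 of 38 were lower on GW501516, against 32.4% of genes, and these 2 comparisons share no array. The differences were small. Between probe sets of a gene, such differences had SDs of 0.45 in transgenic and 0.35 in wild-type mice, more than the size of the members' medians. Ect2, 2.10-fold lower in transgenic mice, was the 1 member at least 2-fold lower, where 4.07% of genes were, and in wild-type mice 0 of 38 were, where 3.25% were. None was at least 2-fold higher, against 3.99% of genes in transgenic and 3.18% in wild-type mice.

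After Ect2, the lowest members on GW501516 in transgenic mice were Kif11 (1.82-fold lower), Cenpa (1.74-fold), Aurkb (1.74-fold), Bub1 (1.68-fold) and Cenpe (1.67-fold). In wild-type mice they were Nek2 (1.75-fold), Cenpe (1.74-fold), Bub1b (1.58-fold), Birc5 (1.57-fold) and Cks2 (1.501-fold). Mki67 was 1.09-fold lower in transgenic and 1.12-fold lower in wild-type mice. Taken by member, 27 of 38 had the same order of arrays, an order that 7.17% of genes had. The transgenic pool on chow was highest, then the transgenic pool on GW501516, the wild-type pool on chow and the wild-type pool on GW501516. This order joins the genotype pattern and the diet pattern already counted, so it is not a separate result. The highest pool here is the array that stood apart in BioB and Gapdh. The transgene difference on chow and the GW501516 difference in transgenic mice also rest on that array. Its part in these differences was not tested. T cell and B cell markers were also lower on GW501516. Of 15 T cell markers, 12 were at least 2-fold lower in transgenic and 13 in wild-type mice, with medians of -2.28 and -4.04, and of 11 B cell markers 7 and 10 were. Skeletal muscle genes were higher, with 19 and 20 of 21 at least 2-fold higher. The part of these tissues in the mitotic difference between diets was not tested.

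**Figure D4:**
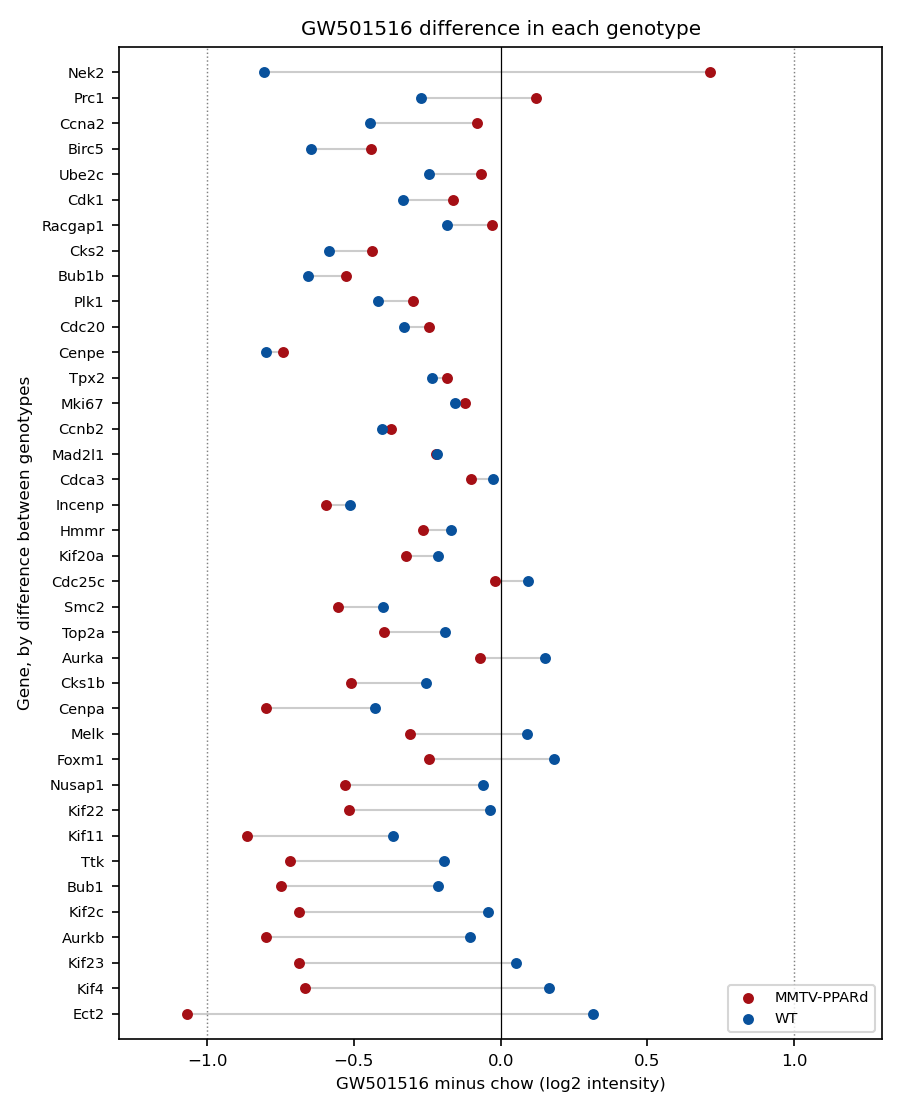
Log2 difference between GW501516 and chow for each measured member in MMTV-PPARd mice (red) and in wild-type mice (blue), ordered by the difference between genotypes, with dotted lines at 2-fold. Most points lie left of 0, Nek2 at the top moves in opposite directions, and Ect2 at the bottom passes the line in MMTV-PPARd mice.

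The difference between these effects, transgenic minus wild type, had a median of -0.10 over the 38 members and 0.006 over the 7836 genes. These differences were largest for Nek2 (1.52) and Ect2 (-1.38), and they were -0.83 for Kif4, -0.74 for Kif23 and -0.695 for Aurkb. Mki67 (0.036), Ccnb2 (0.030) and Mad2l1 (-0.002) differed least. Against untreated wild-type mice, transgenic mice on GW501516 had 35 of 38 members above 0, a median of 0.61 and 4 members at least 2-fold higher, where 47.8% of genes were above 0 and 5.5% at least 2-fold higher, and 0 members were at least 2-fold lower, against 4.21%. The 4 were Mki67, Cdc25c, Melk and Kif20a, and Foxm1, Cenpe and Cenpa were below 0. This comparison shares arrays with all the others.

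Other genes of the division machinery, which are not in the set of 40, differed in the same direction. These lists too were chosen with earlier results of these data known, so they are not an independent check of the members. Of 53 measured further mitotic genes, 46 were above 0 on GW501516 and 48 on chow, with medians of 0.53 and 0.75, and 9 and 16 were at least 2-fold higher, against 2.82% and 5.46% of all genes, and none lower. Ndc80, a kinetochore protein that holds microtubules, read 138.1 (GW501516) and 122.3 (chow) in transgenic mice, against 36.9 and 55.1 in wild-type mice. Kif18a, a motor that shortens spindle microtubules, read 40.4 and 149.4, against 27.4 and 41.2. Gtse1, a microtubule protein of G2 and mitosis, was at least 3.49-fold higher on GW501516, where the wild-type array was below the floor, and 1.07-fold on chow. Genes of the G1/S transition and of DNA replication were higher by less. Of 43 measured, 38 and 40 were above 0 on GW501516 and on chow, with medians of 0.42 and 0.56, and 2 and 3 were at least 2-fold higher, near the shares of 2.82% and 5.46% over all genes. Cdc25a, the phosphatase that opens S phase, was 2.72-fold and 1.89-fold higher, and Prim1, the primase catalytic subunit, 1.60-fold and 2.43-fold. E2f8, a repressor of the E2F family, was 1.21-fold and 2.46-fold higher.

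Further lists of cell cycle genes had medians nearer 0. The 9 genes of the G1 cyclins, their kinases and Myc had medians of -0.034 on GW501516 and 0.00 on chow. The chow median is that of Cdk6, which was below the floor on all arrays, so its difference was set to 0. Ccnd1, cyclin D1, which is known to be needed for alveolar growth of the mouse mammary gland, was nevertheless 2.05-fold and 2.40-fold higher, at 2914 (GW501516) and 3163.9 (chow) in transgenic mice, against 1422.6 and 1319.7 in wild-type mice. Myc was 1.21-fold and 3.196-fold higher, while Mycn read 17.7 (below the floor) and 55.7, against 52.1 and 125.6. A list of cohesin genes also held the checkpoint genes Bub3 and Mad1l1 and the phosphatase subunit Ppp2r2a. It had medians of 0.073 and 0.15 over 10 genes, with 0 at 2-fold. Of all genes, 2.82% and 5.46% were at least 2-fold higher and 1.19% and 3.71% lower, so 0 of 10 lies near those shares. CDK inhibitors and arrest genes had medians of -0.12 and 0.10 over 20 genes. Cdkn1a, which encodes the CDK inhibitor p21, read 301.5 and 329.8 in transgenic mice, against 547.9 and 443.9 in wild-type mice. Gadd45g was 2.07-fold and 1.21-fold higher, and Gadd45b read 311.5 and 335.4, against 291.1 and 640.8.

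Markers of other cells of the gland also differed between genotypes. Of 18 luminal markers, 13 were above 0 on GW501516 and 14 on chow, with medians of 0.51 and 0.84. At least 2-fold higher were 2 and 8 of them, against 2.82% and 5.46% of all genes. Their summed intensity was 42295.2 (GW501516) and 37625.2 (chow) in transgenic mice, against 28971.1 and 25352.2 in wild-type mice, while that of the 38 mitotic genes was 18995.9 and 24568.8, against 11084.2 and 13568.9. Muc1, Ehf and Elf5 had the largest differences, and Muc1 read 479 and 206.8, against 65.7 and 27.6. Krt7 was lower on both diets, at 730.2 and 592.1, against 974.1 and 1036.4, and on chow Krt19 read 3595.3 against 4450.4 and Prom1 376.8 against 529.8.

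Of 12 basal markers, 7 were above 0 on GW501516 and 11 on chow, and 5 and 1 were below 0. Their medians were 0.087 and 0.62, and 1 and 3 were at least 2-fold higher. Krt14 had the largest difference, at 2818.1 (GW501516) and 3651.7 (chow) in transgenic mice, against 334.9 and 323.2 in wild-type mice. Milk protein genes had medians of 1.64 and 0.91 over 14 genes, with 10 and 7 at least 2-fold higher and 0 and 1 lower. Of all genes, 2.82% and 5.46% were at least 2-fold higher, and 1.19% and 3.71% lower. Stromal lists went the other way. Fibroblast and matrix genes were below 0 for 10 of 14 on GW501516 and 14 of 14 on chow, with medians of -0.10 and -0.72, and white adipocyte genes for 10 and 12 of 12, with medians of -0.26 and -0.47. In wild-type mice on GW501516 relative to chow, luminal markers had a median of 0.40 and mitotic genes -0.22. The part of epithelial, stromal and fat content in the genotype difference was not tested.

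Lymphocytes in the gland and its lymph node can also divide. On GW501516, 8 of 15 T cell and 7 of 11 B cell markers were below the floor in transgenic mice, and 6 and 7 in wild-type mice, among them Cd8a, Cd8b1, Cd79a and Blk on both arrays. On chow, T cell and B cell markers were lower in transgenic mice, with medians of -1.41 and -0.99. Plasma cell genes differed among themselves, with medians of 0.48 on GW501516 and 0.37 on chow over 8 genes. Jchain, which joins antibody units, read 227 (GW501516) and 5160.7 (chow) in transgenic mice, against 112.4 and 68.9 in wild-type mice. Igha, the heavy chain of IgA, read 1408.6 and 6954.9, against 502.6 and 229.4. The transcription factor Irf4 read 435.3 and 320.3, against 772.9 and 710.5. Both antibody genes were thus higher in transgenic mice on both diets, and most on chow, while Irf4 was lower.

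Macrophage markers had medians of -0.17 on GW501516 and -0.79 on chow. Immediate early genes had medians of -0.065 and 0.56, with Fos 7.11-fold higher in transgenic mice on chow. Of the germinal centre markers only 4 were measured, and Mef2b was below the floor on all arrays while Bcl6 read 396.3 to 579.8. Bcl6 was higher in transgenic mice on both diets, by 1.07-fold on GW501516 and 1.46-fold on chow. Fas and Gcsam were lower on both. Fas read 68.3 (GW501516) and 193.6 (chow) in transgenic mice, against 175.1 and 261.8 in wild-type mice. Gcsam read 22.2 and 35.1, against 43.4 and 47.3. The part of lymphocytes, plasma cells and macrophages in the genotype difference was not tested.

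**Figure D5:**
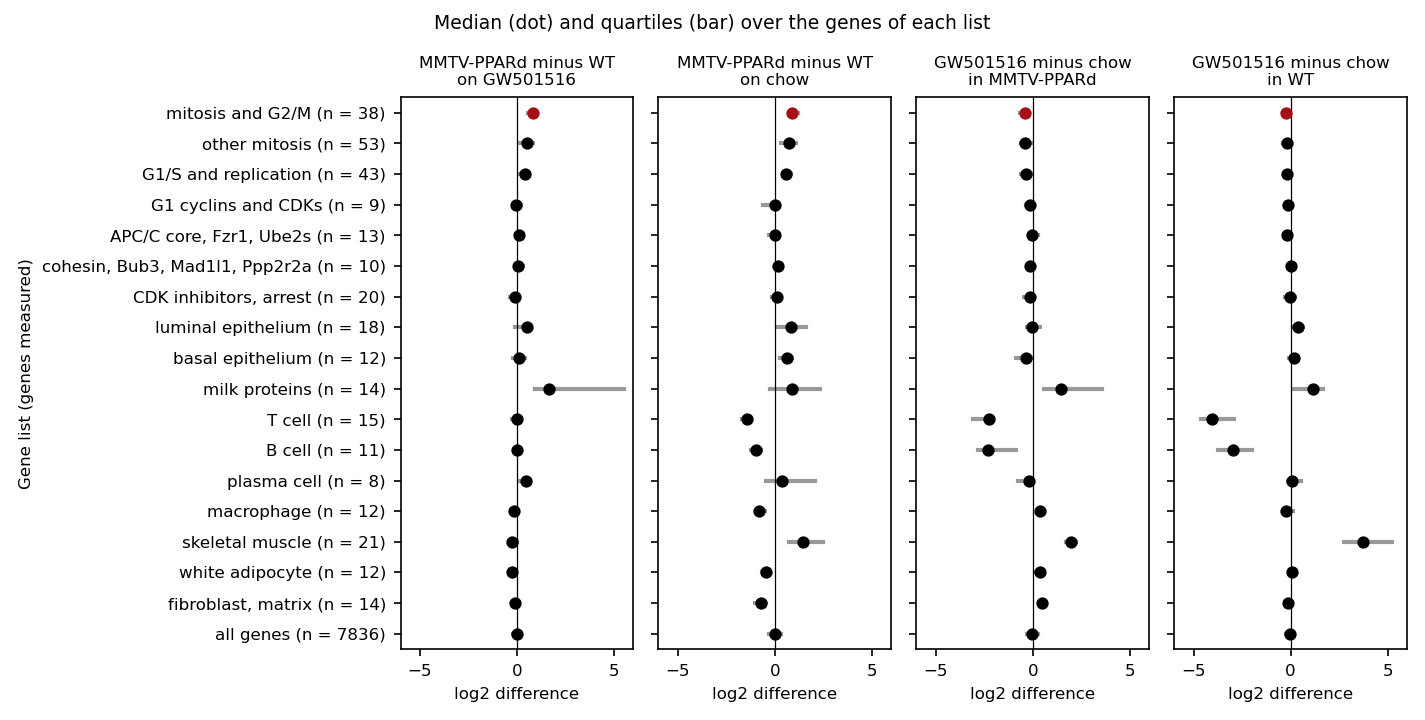
Median (dot) and quartiles (bar) of the log2 difference over the measured genes of each list in 4 comparisons, with all 7836 genes that reached 139 at the bottom. Mitotic genes (red) lie at 0.85 and 0.90 in the comparisons of genotype and at -0.39 and -0.22 in those of diet, while T cell, B cell and skeletal muscle lists lie far from 0 in the comparisons of diet and milk protein genes lie at 1.64 and 0.91 in those of genotype.

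More than one probe set read 13 of the members above the floor on all arrays. The 18 additional probe sets of these genes that did so gave the same direction as the main one in both comparisons of genotype. The 13 probe sets left out were below the floor on 1 or more arrays, and among them that of Kif23 given above was opposite on chow. One of Cdca3 was opposite on GW501516, at 16.8 in transgenic mice, below the floor, against 25.6 in wild-type mice. Between diets, 15 of 18 gave the same direction in transgenic mice, with Kif2c, Prc1 and Tpx2 as exceptions, and 16 of 18 in wild-type mice, with Kif22 and Kif2c as exceptions. Kif11 shows the spread of sizes, with log2 differences of 0.91, 0.47 and 0.29 on GW501516 and 1.41, 0.755 and 0.45 on chow from its 3 probe sets. The second Racgap1 probe set gave 0.13 and 0.33, where the first gave 0.80 and 0.65.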

How the data were processed

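Mammary gland RNA was measured on 4 Affymetrix mouse arrays, 1 per group, each from RNA of 5 mice pooled (1 µg each), per the labels' protocols. What the authors deposited is 1 intensity per probe set, not log-transformed, as read from the values, with trimmed means that show a common scaling. For scanner software, summarisation and genome build the sources used here say nothing. The members and lists were chosen with earlier results of these data known.

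One gene symbol was given for 20393 of 22690 probe sets, 20364 of them matched by gene ID to RefSeq; 691 with several symbols and 1606 not listed named no gene. A gene with several probe sets was read from the one brightest on average. Values under 20.5 (25th percentile) were set to it, and log2 was taken. All 38 measured members were used without a filter on low values, since none was below the floor. This was settled after the values were seen, and intensities of the 4 members under the filter are printed too, beyond the naming rule. The comparison was with 7836 genes that reached 139 on at least 1 array. Only differences, counts at 2-fold and medians were computed. The genes named are all members, up to 3 genes of each other list with the largest genotype difference, markers of epithelium and lymphocytes given as measured levels, and Ppard, Gapdh and BioB. Krt7, Krt19, Prom1, Bcl6, Fos, the markers below the floor on both GW501516 arrays and the choice of printed promoters were singled out after their values were seen. Alternatives covered scaling, floor, filter and probe set choice. The steps were run on simulated data with planted differences and no array or pool effects, which checks the computing steps but none of the results above. Python 3.11.15, numpy 2.4.6, pandas 2.3.3 and matplotlib 3.10.9 were used. The number of arrays limits the precision.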

Additional observations from a re-analysis of the deposited data

Results flagged for a closer look

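Nek2 was singled out because its GW501516 effects ran in opposite directions in the genotypes by at least 1.5-fold each, with a difference between them of 1.52 on the log2 scale. It was 1.64-fold higher on GW501516 in transgenic mice and 1.75-fold lower in wild-type mice, from intensities of 114.3 (GW501516) and 69.8 (chow) in transgenic mice, against 37 and 64.7 in wild-type mice. The difference was not tested, since each value is 1 array of 1 pool, and Nek2 has 1 probe set here.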

How the results depend on the processing

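No paired analysis was possible because each group is 1 array. Over 9 other settings, 137 of 144 medians and counts of the members moved by less than 0.1 (log2) or 1.5 times, and none changed direction. With the mean over probe sets the median was 0.654 for the transgene on GW501516 and 0.478 for transgenic mice on GW501516 against wild type on chow. With each of 69 probe sets counted on its own, the medians were 0.682 and 0.76 for the transgene on GW501516 and on chow, -0.249 for GW501516 in transgenic mice and 0.474 for the combined comparison. With arrays shifted to one median, 0 members in place of 1 were at least 2-fold lower on GW501516 in transgenic mice, since Ect2 lies just beyond the line. The members at least 2-fold higher numbered 10 to 15 on GW501516 and 9 to 18 on chow over all settings. Of 1764 differences of single members, 138 moved by at least 0.1 and 0 of those at 2-fold reversed. The planned setting with no filter is how the main values were made, so a filter at 139 was run in its place, a choice made after seeing the data, and for the 34 members left it gave medians of 0.851 and 0.916 on GW501516 and on chow with 11 and 12 at least 2-fold higher. Among 38 members, the number above 0 on both diets was 34 with a floor at the 40th percentile or without probe sets that can share transcripts, against 36. Without those probe sets, Top2a and Cdca3 joined Foxm1 and Kif23 as not above 0 on both diets. Their remaining probe sets read at most 1.3 and 20.3, below the floor, so their differences were set to 0. With the higher floor Nek2 and Cenpe joined instead, both under 139 on all arrays. For other settings the cause of a difference was not tested. Low intensities limit Cdc25c, Foxm1, Nek2 and Cenpe.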
